A study of Arabidopsis thaliana with 6 samples.

Results

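GLK1 (AT2G20570), GLK2 (AT5G44190), GNC (AT5G56860) and CGA1 (AT4G26150), 4 transcription factor genes of chloroplast development, were followed in whole seedlings of the toc1-21 prr5-1 double mutant and of wild-type Col-0. The 4 genes were taken by their locus identifiers out of 33602 genes in the deposited tables; that rule uses no measured value, but the set was proposed with earlier results of these data known. Each genotype had 3 libraries from seedlings 10 days old, grown on MS medium with 3% sucrose at 22 °C under LD conditions and harvested at ZT15, the zeitgeber time counted in hours from lights on. The mutant is labelled as carrying toc1-21 and prr5-1 together (-/-), the controls are labelled wild type, and no treatment or transgene is named for either. The design text calls the libraries biological replicates; whether these were separately grown batches of plants is not stated, so p-values describe only the variation among these 6 libraries, which may be technical.

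TOC1 and PRR5 encode pseudo-response regulators, repressors of transcription that act within the circadian clock. GLK1 and GLK2 are a pair of GARP-family activators with overlapping functions that switch on nuclear genes for chlorophyll synthesis and for the light-harvesting antenna. GNC and CGA1 (also named GNL) are a pair of B-class GATA zinc-finger factors that promote greening and chloroplast number, and both respond to light, nitrogen and cytokinin. The comparison asks whether loss of the 2 clock repressors is accompanied by changed transcript levels of these greening regulators at ZT15. Every library was harvested at that time, so a change in level and a shift in daily timing cannot be told apart.

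The annotated transcripts of each pair shared only short runs of identical bases. These runs were not compared with the read length, and how reads matching both paralogs were assigned is not stated. On TAIR10.1, GLK1 (listed by RefSeq as GPRI1) lies at chr2:8855302-8857758, GLK2 at chr5:17798262-17800926, GNC at chr5:22989216-22991530 and CGA1 at chr4:13253084-13255106. No other annotated gene overlaps any of the 4 on either strand. The longest run of identical bases shared by the annotated transcripts of GLK1 and GLK2 was 24 bases, and that of GNC and CGA1 was 25 bases, both inside coding sequence. Of all 50-base stretches of the 4 genes' annotated transcripts, 0 occurred outside these 4 genes in the genome. The coding windows below, read from RefSeq TAIR10.1 on the coding strand, show each shared run in capitals with 30 bases on either side.
GLK1: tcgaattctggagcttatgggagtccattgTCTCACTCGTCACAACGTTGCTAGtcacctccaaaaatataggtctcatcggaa
GLK2: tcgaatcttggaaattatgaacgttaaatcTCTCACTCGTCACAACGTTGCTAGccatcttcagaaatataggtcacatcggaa
GNC: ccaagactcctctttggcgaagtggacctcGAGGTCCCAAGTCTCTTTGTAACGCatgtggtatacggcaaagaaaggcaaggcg
CGA1: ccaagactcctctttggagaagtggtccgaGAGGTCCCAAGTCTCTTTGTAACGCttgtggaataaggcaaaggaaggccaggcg
The bases directly beside each run differ between the paralogs by the definition of a longest run.

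The libraries rest on 14617043 to 26792712 reads, and values are RPKM, reads scaled to gene length and library depth. TOC1 stood at 16.8 ± 1.91 RPKM in the mutant and 33.6 ± 1.49 RPKM in Col-0, and PRR5 at 1.12 ± 0.216 RPKM in the mutant and 2.94 ± 0.0664 RPKM in Col-0 (SD, n = 3 each). Both targeted genes were lower in the libraries labelled as mutant (limma adjusted p under 0.05 for each), with transcripts still measured in every one. Markers of several tissues were present: all 5 leaf mesophyll, 8 root, 4 guard cell and 4 seed markers were above 0 in every library.

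GLK2 was higher in the mutant and CGA1 was lower, while GLK1 and GNC did not pass the test, so that within each pair 1 paralog was called and the other was not. All 4 genes passed the filter of at least 1 RPKM in at least 3 libraries. The test was limma on log2(RPKM + 1) across 19710 genes with Benjamini-Hochberg adjustment, and a call needs an adjusted p under 0.05. On simulated reads the share of false calls by this test averaged above 0.05, so calls near the threshold are less certain than their adjusted p states. Of all tested genes, 10.6% were called, 3.90% as higher and 6.65% as lower. Values did not overlap between the genotypes for 2 of the 4 members, GLK2 and CGA1, and for 27.0% of all tested genes.

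**Figure D1:**
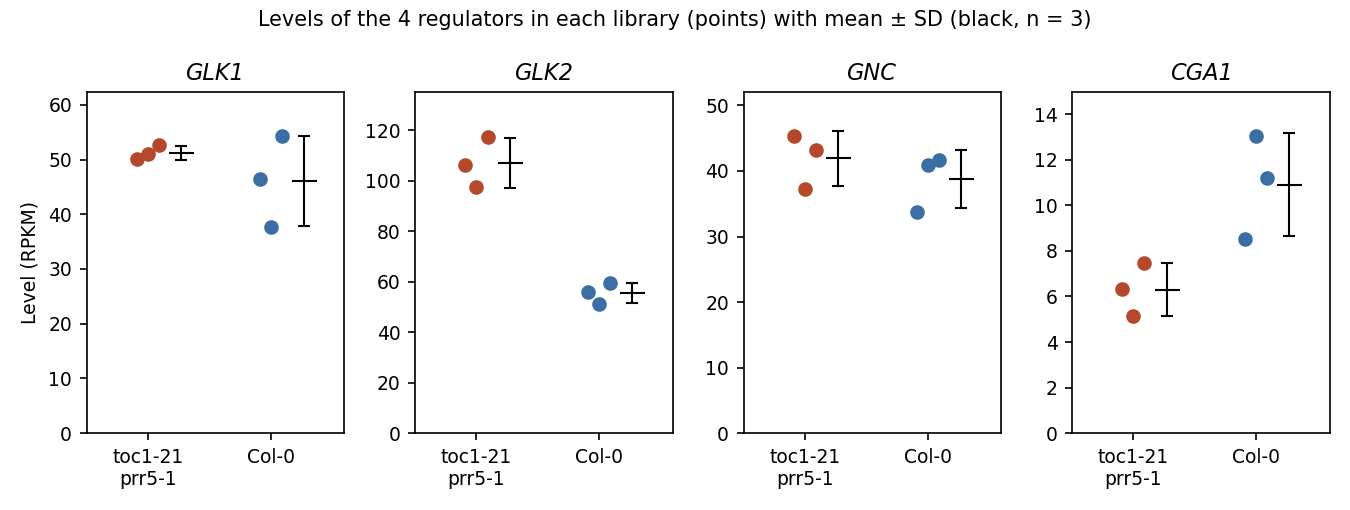
Level in RPKM (vertical axes, each from 0) of GLK1, GLK2, GNC and CGA1 in every library, toc1-21 prr5-1 left of Col-0. Points are libraries and black marks are the mean ± SD (n = 3). The genotypes are apart for GLK2, with the mutant at 97.6 RPKM or above, and for CGA1, with the mutant at 7.46 RPKM or below, and they overlap for GLK1 and GNC.

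GLK2 had 106.3, 97.6 and 117.5 RPKM in mutant replicates 1 to 3, against 55.8, 51.2 and 59.3 RPKM in Col-0 replicates 1 to 3. Every mutant library lay above every Col-0 library, a separation seen in the higher direction for 11.6% of tested genes. The means were 107.1 ± 9.97 RPKM in the mutant and 55.4 ± 4.05 RPKM in Col-0 (SD, n = 3 each), a 1.93-fold difference. On the log2(RPKM + 1) scale the fold change was 0.94 (SE 0.0946, limma adjusted p = 0.000154). The values rest on 1145 to 3672 reads per library, for a counting error of at most 2.96%. In whole-seedling RNA, a change in the number of cells of a type and a change in RNA per cell cannot be told apart. Summed leaf mesophyll markers overlapped between the genotypes, at 21735 to 24313 RPKM in the mutant and 21017 to 24906 RPKM in Col-0, with RCA called as higher and RBCS2B as lower among the 5. Summed seed markers did not overlap, at 270.3 to 330.2 RPKM in the mutant and 511.7 to 627.4 RPKM in Col-0. The part of these markers in the GLK2 value was not tested.

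GLK1, the other member of the pair, had 50.1, 51.0 and 52.7 RPKM in mutant replicates 1 to 3, against 46.4, 37.7 and 54.2 RPKM in Col-0 replicates 1 to 3. The mutant libraries lay close together, inside the wider range of the Col-0 libraries. Means were 51.2 ± 1.303 RPKM in the mutant and 46.1 ± 8.27 RPKM in Col-0 (SD, n = 3 each). The log2 fold change of 0.16 did not pass (limma adjusted p = 0.503), and its 95% interval of -0.11 to 0.43 leaves out a change as large as that of GLK2. The reads behind GLK1 numbered 1021 to 2284 per library, so counting error, at most 3.13%, is small beside the spread of the Col-0 libraries.

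CGA1, a GATA factor named for its response to cytokinin, had 6.32, 5.12 and 7.46 RPKM in mutant replicates 1 to 3, against 8.50, 13.0 and 11.2 RPKM in Col-0 replicates 1 to 3. The genotypes did not overlap, as for 15.4% of tested genes in the lower direction, but Col-0 replicate 1 lay near the mutant range. The mutant mean of 6.30 ± 1.17 RPKM was 57.8% of the Col-0 mean of 10.9 ± 2.27 RPKM (SD, n = 3 each). The log2 fold change was -0.70 (SE 0.168, limma adjusted p = 0.0252). The call was lost in 4 of 6 fits that left out 1 library. The adjusted p was 0.0821 without mutant replicate 1, 0.105 without mutant replicate 2, 0.0683 without Col-0 replicate 2 and 0.0522 without Col-0 replicate 3, and over all 6 such fits the log2 fold change stayed between -0.85 and -0.57. With no filter on low values the adjusted p was 0.0675. CGA1 was the least abundant of the 4 genes and rested on 162 to 324 reads per library, with a counting error of up to 7.86%.

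GNC, its paralog, had 45.3, 37.2 and 43.3 RPKM in mutant replicates 1 to 3, against 33.8, 40.9 and 41.7 RPKM in Col-0 replicates 1 to 3. The ranges overlapped, and the lowest mutant value lay below 2 of the Col-0 values. Means were 41.9 ± 4.18 RPKM in the mutant and 38.8 ± 4.39 RPKM in Col-0 (SD, n = 3 each). The log2 fold change of 0.11 did not pass (limma adjusted p = 0.645), with a 95% interval of -0.13 to 0.36 that reaches neither the change of GLK2 nor that of CGA1. The read counts for GNC were 828 to 1674 per library.

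**Figure D2:**
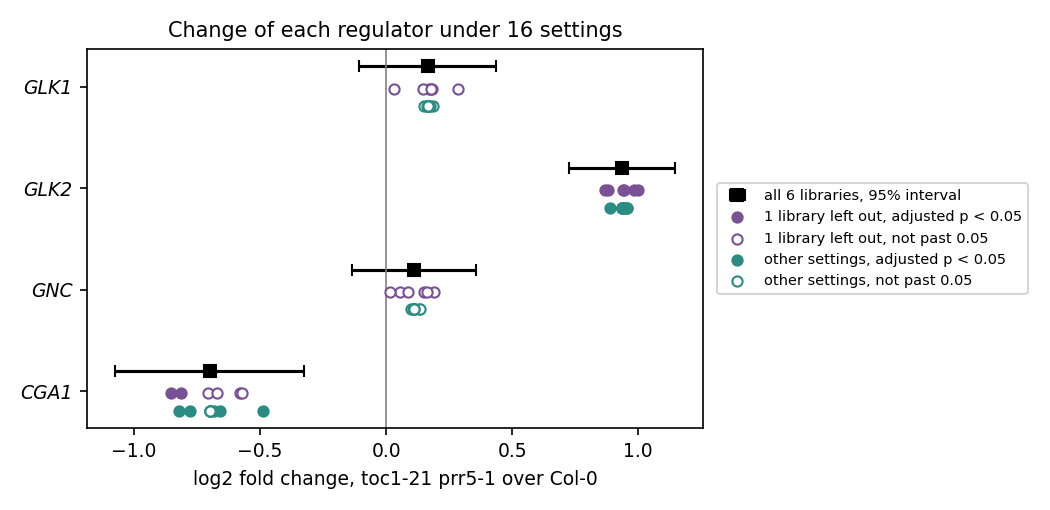
Log2 fold change of each gene, toc1-21 prr5-1 over Col-0 (horizontal axis), with all 6 libraries and its 95% interval (black), with 1 library left out (purple) and under 9 other settings (green). Filled circles have a limma adjusted p under 0.05 and open circles do not. GLK2 keeps its call at every point, CGA1 loses it at 5 of 15, and GLK1 and GNC are called at 0 of 15 each.

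The change in GLK2 stood under every alternative run. Its log2 fold change ranged from 0.87 to 1.00 over the 15 alternatives, with a limma adjusted p of at most 0.00163. GLK1 ranged from 0.03 to 0.29 and GNC from 0.02 to 0.19, and neither was called in any of the 15. For GLK1 the ends of that range come from leaving out Col-0 replicate 2, the lowest Col-0 library, and Col-0 replicate 3, the highest.

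Because only 1 paralog of each pair was called, the make-up of each pair was compared directly. GLK2 gave 68.0%, 65.7% and 69.1% of the pair's summed RPKM in mutant replicates 1 to 3, against 54.6%, 57.6% and 52.2% in Col-0 replicates 1 to 3. The mean log2 ratio of GLK1 over GLK2 was -1.06 ± 0.11 in the mutant and -0.28 ± 0.16 in Col-0 (SD, n = 3 each), a difference of -0.78. CGA1 gave 12.3%, 12.1% and 14.7% of its pair in mutant replicates 1 to 3, against 20.1%, 24.1% and 21.2% in Col-0 replicates 1 to 3. The mean log2 ratio of GNC over CGA1 was 2.75 ± 0.18 in the mutant and 1.85 ± 0.17 in Col-0 (SD, n = 3 each), a difference of 0.90. For both ratios all 3 mutant libraries lay on the same side of all 3 Col-0 libraries. Each ratio contains a gene whose values were already seen not to overlap, so this separation is not a separate result. The exact two-sided permutation test gave p = 0.1 for each, the smallest value that 3 libraries against 3 allow, so these differences cannot pass a threshold of 0.05.

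**Figure D3:**
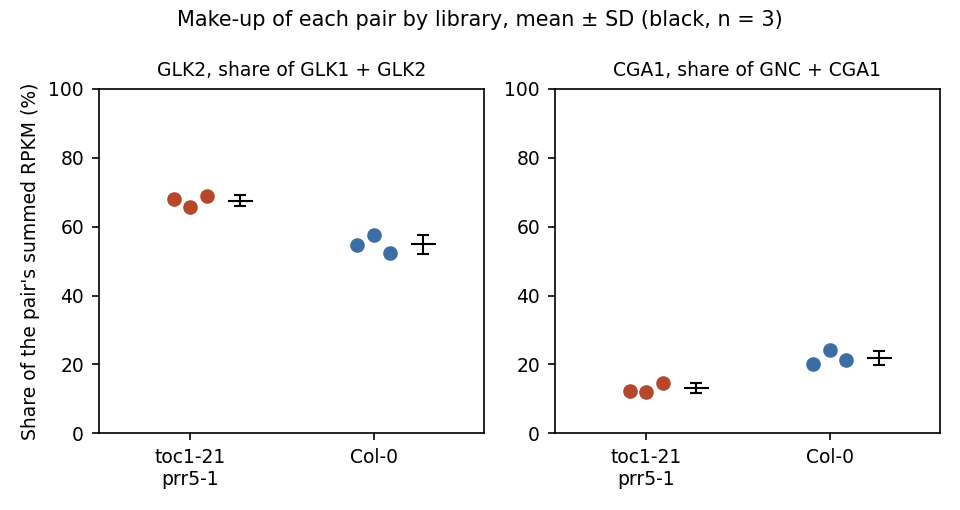
Share of each pair's summed RPKM, in percent, held by GLK2 (left) and by CGA1 (right) in every library, toc1-21 prr5-1 left of Col-0, with mean ± SD in black (n = 3). GLK2 holds 65.7% to 69.1% in the mutant and 52.2% to 57.6% in Col-0, and CGA1 holds 12.1% to 14.7% in the mutant and 20.1% to 24.1% in Col-0.

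Summed over the pair, GLK transcripts were at 158.4 ± 10.9 RPKM in the mutant and 101.5 ± 12.3 RPKM in Col-0, a 1.56-fold difference, where GLK2 alone differed 1.93-fold and GLK1 1.11-fold. The GATA pair was at 48.2 ± 5.10 RPKM in the mutant and 49.7 ± 6.48 RPKM in Col-0 (SD, n = 3 each), a ratio of 0.970. No test was run on these sums. RPKM is scaled by gene length, so a ranking of levels between genes depends on the lengths used. The lengths recovered from the deposited values were 1673 bases for GLK1, 1404 for GLK2, 1678 for GNC and 1304 for CGA1. Annotated exons span 1731, 1732, 1790 and 1632 bases in the same order. The ranking, the pair shares and the pair sums were not recomputed with annotated lengths. In the mutant the order was GLK2, GLK1, GNC and CGA1, with no overlap between neighbours. Col-0 had the same order of means, but there the ranges of GLK2 and GLK1 overlapped, as did those of GLK1 and GNC. GLK2 stood at the 94.2 percentile of tested genes in the mutant and the 87.4 percentile in Col-0, and CGA1 at the 30.8 percentile in the mutant and the 45.5 percentile in Col-0.

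The sequences just upstream of the 4 genes were searched for short motifs tied to the clock, to light and to GLK proteins. The windows are the 300 bases before each annotated gene start in RefSeq TAIR10.1, printed on the gene's own strand with motif matches in capitals. GLK2 and CGA1, the called genes, are shown first.
GLK2: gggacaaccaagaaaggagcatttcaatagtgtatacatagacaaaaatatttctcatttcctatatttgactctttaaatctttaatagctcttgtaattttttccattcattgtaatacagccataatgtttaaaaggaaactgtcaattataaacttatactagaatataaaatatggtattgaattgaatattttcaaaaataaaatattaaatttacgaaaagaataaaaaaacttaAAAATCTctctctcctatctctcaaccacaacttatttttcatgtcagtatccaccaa
CGA1: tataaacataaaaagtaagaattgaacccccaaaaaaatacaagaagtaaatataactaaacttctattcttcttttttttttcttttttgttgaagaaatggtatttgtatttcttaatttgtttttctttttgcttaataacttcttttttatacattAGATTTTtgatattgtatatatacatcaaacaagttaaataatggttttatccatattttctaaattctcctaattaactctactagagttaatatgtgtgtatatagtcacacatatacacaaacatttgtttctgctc
GLK1: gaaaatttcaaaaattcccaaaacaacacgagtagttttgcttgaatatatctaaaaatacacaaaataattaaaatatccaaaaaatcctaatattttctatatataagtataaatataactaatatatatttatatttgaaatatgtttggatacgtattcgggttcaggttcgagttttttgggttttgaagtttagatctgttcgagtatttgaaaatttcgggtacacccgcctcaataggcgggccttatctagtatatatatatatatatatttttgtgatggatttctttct
GNC: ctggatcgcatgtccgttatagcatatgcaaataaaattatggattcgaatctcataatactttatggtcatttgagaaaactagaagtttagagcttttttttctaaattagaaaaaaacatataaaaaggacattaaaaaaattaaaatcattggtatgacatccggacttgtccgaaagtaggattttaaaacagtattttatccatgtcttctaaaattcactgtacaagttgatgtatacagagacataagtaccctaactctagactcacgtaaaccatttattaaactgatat
These windows are chr5:17797962-17798261 (plus strand), chr4:13252784-13253083 (plus), chr2:8855002-8855301 (plus) and chr5:22991531-22991830 (minus).

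Both strands were searched for AAAATCT, the core of the site bound by the clock factor CCA1, for AATATCT, the core of the evening element, for the G-box CACGTG and for CCAATC, a motif associated with GLK proteins. AAAATCT occurred once before GLK2, 58 bases before the start, and once before CGA1, 140 bases before the start and on the other strand. GLK1 and GNC had 0 matches to AAAATCT in these windows, and all 4 genes had 0 matches to the other 3 motifs. Among 27437 windows of protein-coding genes, 19.6% held AAAATCT, 11.8% AATATCT, 7.09% CACGTG and 12.2% CCAATC. A match is a run of letters and not a measured binding site, and the absence of one here speaks only of these 300 bases.

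Among the 50 tested genes nearest each member, 25 on either side, between 4% and 8% were called, beside the background of 10.6%. The neighbours of GLK2 held 4 calls, each in the lower direction, and had a median log2 fold change of -0.04. 1 of these calls, CRA1 (AT5G44120), is also among the seed markers, so the 2 observations are not separate. TOC1 (AT5G61380) and PRR5 (AT5G24470) lie on chromosome 5, as do GLK2 and GNC. Whether this shared chromosome bears on the values was not tested. Those of CGA1 held 1 higher and 2 lower genes, those of GNC 2 higher and 1 lower, and those of GLK1 2 lower.

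Genes of both classes that GLK proteins are known to activate, chlorophyll synthesis and the antenna, were called as higher in the mutant. Of the 19 chlorophyll synthesis genes tested, 7 were higher and 12 did not pass, against a background of 3.90% higher. PORA, 1 of these 7, lay below 1 RPKM in every Col-0 library. It passed the filter of 1 RPKM only through its mutant libraries, so its place in this count depends on the genotype in which it was high. The list's median log2 fold change was 0.16, against -0.01 over all tested genes. CHLH, the largest subunit of magnesium chelatase, was at 175.9 ± 10.9 RPKM in the mutant and 37.7 ± 2.52 RPKM in Col-0, and CAO, which makes chlorophyll b, at 34.2 ± 2.02 RPKM in the mutant and 5.28 ± 1.28 RPKM in Col-0 (SD, n = 3 each). PORB, a light-dependent protochlorophyllide reductase, was at 407.9 ± 5.92 RPKM in the mutant and 164.8 ± 8.74 RPKM in Col-0. HEMA1, a glutamyl-tRNA reductase at the entry of the pathway, was at 137.3 ± 3.99 RPKM in the mutant and 68.1 ± 1.17 RPKM in Col-0 (SD, n = 3 each). These 7 genes kept their call under every alternative in which they were tested, which was 11 of 15 for PORA and all 15 for the others.

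The antenna list had 18 tested genes and a median log2 fold change of 0.75; 12 of them were called as higher and 1 as lower, and 5 missed the threshold, against a background of 3.90% higher and 6.65% lower. LHCB2.2 had a log2 fold change of 3.93, LHCB2.1 of 3.56 and LHCB1.1 of 2.82, while LHCB4.2, a minor antenna protein, was the 1 lower gene at -2.49. LHCB1 and LHCB2 genes have near-identical copies, so the value of each is uncertain. The call on LHCA2 was lost without mutant replicate 1 or without Col-0 replicate 1, and that on LHCB6 without Col-0 replicate 1, at a limma adjusted p of up to 0.0737. These lists were assembled with earlier results of the same data in view, and their counts are not independent evidence for the activity of any regulator.

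**Figure D4:**
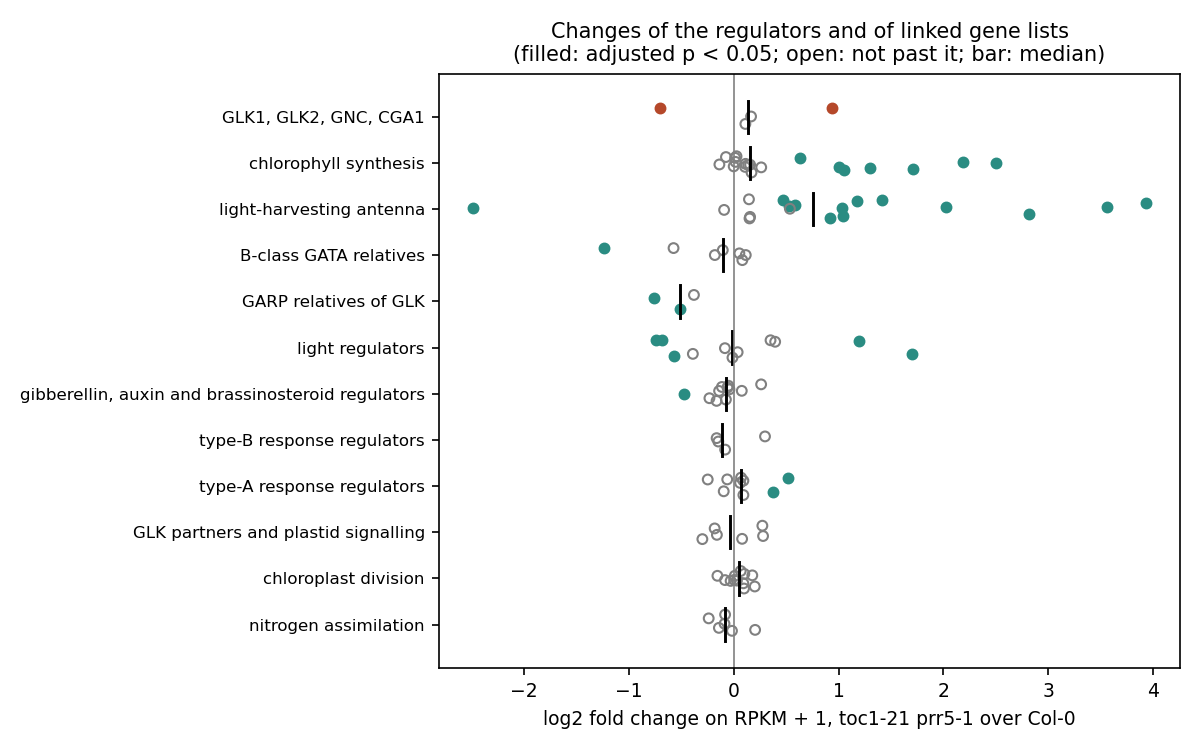
Log2 fold change on RPKM + 1, toc1-21 prr5-1 over Col-0 (horizontal axis), of the 4 regulators (top row) and of each tested gene in 11 linked lists. Filled circles have a limma adjusted p under 0.05, open circles do not, and bars are medians. The antenna list has the highest median, 0.75, while chloroplast division and nitrogen assimilation genes stay within 0.24 of 0.

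Of 7 tested B-class GATA relatives, 1 was lower and 6 did not pass, near the background of 10.6% called. The list held 2 calls with a pseudocount of 5, with the replicate block or without mutant replicate 3. The called gene, GATA17L, was at 19.5 ± 0.904 RPKM in the mutant and 47.7 ± 5.12 RPKM in Col-0 (SD, n = 3 each, limma adjusted p = 2.79e-05). GATA23 was below the filter. Of 3 GARP relatives, 2 were lower and 1 did not pass, against a background of 6.65% lower. APRR2, a close relative of the GLK factors, was at 11.7 ± 0.0783 RPKM in the mutant and 17.2 ± 1.22 RPKM in Col-0. The clock gene BOA was at 11.3 ± 1.09 RPKM in the mutant and 19.8 ± 1.83 RPKM in Col-0 (SD, n = 3 each). LUX, a subunit of the evening complex, did not pass (limma adjusted p = 0.267).

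Of 11 tested light regulators, 2 were higher, 3 were lower and 6 did not pass, against a background of 3.90% higher and 6.65% lower. The list's calls numbered 3 with a filter of 5 RPKM, without mutant replicate 3 or without Col-0 replicate 1. PIF4 and PIF5, basic helix-loop-helix factors that repress greening genes in the dark, were higher, with PIF4 at 5.29 ± 0.359 RPKM in the mutant and 1.76 ± 0.351 RPKM in Col-0 and PIF5 at 13.6 ± 1.44 RPKM in the mutant and 3.53 ± 0.639 RPKM in Col-0 (SD, n = 3 each). HY5, a bZIP activator of light-induced genes, was at 13.0 ± 1.57 RPKM in the mutant and 22.8 ± 4.99 RPKM in Col-0, and its B-box partner BBX21 at 42.4 ± 3.90 RPKM in the mutant and 68.9 ± 8.11 RPKM in Col-0 (SD, n = 3 each). The call on HY5 (limma adjusted p = 0.0132) was lost without mutant replicate 3 or without Col-0 replicate 1, at an adjusted p of at most 0.0624. PIF7, the other lower gene, lost its call without any 1 of the 6 libraries, with an adjusted p of up to 0.110.

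Of 11 gibberellin, auxin and brassinosteroid regulators, 1 was called, which is near the background of 10.6%. It was BES1, a brassinosteroid-response factor, at 80.7 ± 6.76 RPKM in the mutant and 112.3 ± 7.48 RPKM in Col-0 (SD, n = 3 each, limma adjusted p = 0.00778). The DELLA repressors RGA and GAI, which act upstream of GNC and CGA1, did not pass, with log2 fold changes of 0.08 and -0.04. In the cytokinin pathway limma called 0 of 4 type-B response regulators, with 1 at an unadjusted p under 0.05 and 0 called by limma-voom. Of 9 type-A response regulators, negative regulators of cytokinin signalling, 2 were higher and 7 did not pass, against a background of 3.90% higher. Their number of calls was 0 with no filter, without mutant replicate 2 or 3 and without Col-0 replicate 1 or 3. ARR5 was at 11.9 ± 1.75 RPKM in the mutant and 8.03 ± 0.786 RPKM in Col-0, and ARR9 at 28.4 ± 1.61 RPKM in the mutant and 21.7 ± 2.13 RPKM in Col-0 (SD, n = 3 each). Both calls were lost in several alternatives, ARR5 in 5 of 15 and ARR9 in 7 of 15, with an adjusted p of up to 0.133 for ARR5 and 0.152 for ARR9; the libraries whose removal ended either call were mutant replicates 1, 2 and 3 and Col-0 replicates 1 and 3.

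3 other lists tied to the members held 0 called genes by limma and by limma-voom with all 6 libraries. Over all tested genes, limma called 10.6%. Of 12 chloroplast division genes, a process linked to GNC and CGA1, 0 reached an unadjusted p under 0.05, and their log2 fold changes lay between -0.16 and 0.20. Of 6 nitrogen assimilation genes, among them the glutamate synthase gene GLU1, 2 reached an unadjusted p under 0.05. Of 6 tested GLK partners and plastid signalling genes, 3 reached an unadjusted p under 0.05, 2 were called when Col-0 replicate 3 was left out, and SIB1 was below the filter.

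Markers of other tissues moved with the genotypes in part. The background for the counts below is 3.90% called as higher and 6.65% as lower. Of the 4 seed storage and oil-body markers, whose sums are given beside GLK2, 3 were lower. The 8 root markers summed to 91.6 to 112.1 RPKM in the mutant and 50.4 to 111.9 RPKM in Col-0, with limma and limma-voom calling 0 and 0 at an unadjusted p under 0.05; limma called 1 without Col-0 replicate 3. The 4 guard cell markers summed to 24.9 to 31.7 RPKM in the mutant and 31.4 to 36.7 RPKM in Col-0; limma called 0, with 1 at an unadjusted p under 0.05 and 1 called by limma-voom. Of the 5 leaf mesophyll markers 1 was higher (RCA) and 1 was lower (RBCS2B). Either call was lost without mutant replicate 1, mutant replicate 2 or Col-0 replicate 1, and also with no filter on low values. The call on RBCS2B was also lost without mutant replicate 3 and with median-of-ratios scaling, and that on RCA with quantile normalization. Over all alternatives the limma adjusted p was up to 0.172 for RCA and 0.157 for RBCS2B. The part of these shifts in the values of the 4 regulators was not tested.

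The genes whose profiles were most like each member were picked from all tested genes by Pearson's r of log2(RPKM + 1) over the 6 libraries, given as a description. For GLK2 they were PSAH-1, a subunit of photosystem I (r = 0.9996), AT4G34760 (r = 0.9974) and SQE3, a squalene epoxidase (r = 0.9965). PSAH-1 was at 679.9 ± 43.0 RPKM in the mutant and 419.5 ± 26.0 RPKM in Col-0 (SD, n = 3 each). For CGA1 they were TIM9 (r = 0.99), CBL2 (r = 0.99) and TMN7 (r = 0.99), none of which was called itself, with log2 fold changes of -0.15, -0.30 and -0.20. GLK1 was closest to AT3G61080, AT1G09620 and ATCG00780 (r = 0.99 each), and GNC to BAG4 (r = 0.99), AT2G06950 (r = 0.98) and PSBO2, a subunit of the oxygen-evolving complex (r = 0.98). The 6 points behind each r fall into 2 genotypes and share library depth, so they are not independent.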

How the data were processed

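RNA from whole seedlings was sequenced in 6 libraries, made with a directional kit per the labels' protocols. The deposited files hold RPKM values, 1 file per library, per the file headers. TopHat2, TopHat, edgeR and the TAIR10 build are named in the submitters' processing notes; how reads were assigned to genes, with or without strand and with or without reads of several matches, is not stated there.

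RPKM values were read as deposited. Low values gave each library's depth, and whole reads to within 0.001 were obtained for 25139 of 25139 genes above 0; these reads serve only for counting errors (1 over the square root of the reads, in percent) and for limma-voom. The main test was limma 3.58.1 in R 4.3.3 with its trend option, run on log2(RPKM + 1), genotype as the only term and a filter of 1 RPKM in 3 libraries, with adjustment over 19710 genes. It was checked on simulated reads: large changes were recovered with the right sign, most changes of the smallest simulated size were missed, and the share of false calls averaged above 0.05, more so when all genes had the same dispersion than when dispersions differed between genes. The exact permutation tests used scipy 1.17.1. Alternatives were pseudocounts of 0.1 and 5, no filter, a filter of 5 RPKM, median-of-ratios scaling, quantile normalization, no trend, limma-voom, a replicate block and leaving out each library. Sequences and positions come from RefSeq TAIR10.1, matched by locus for all 4 members.

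Named genes are the 4 members, TOC1, PRR5, PIF4, PIF5, up to 4 called genes per list with the smallest adjusted p, and the 3 genes most correlated with each member; others named were chosen after their values were seen. Members and lists were chosen with earlier results of these data known.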

Additional observations from a re-analysis of the deposited data

How the results depend on the processing

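No difference of the 4 regulators changed direction over 15 alternatives, nor did either pair ratio over its 9, which cover the pseudocount, the replicate block and leaving out a library. With no filter on low values CGA1 kept its log2 fold change of -0.70 but not its call. Leaving out 1 library gave log2 fold changes of 0.03 to 0.29 for GLK1, 0.87 to 1.00 for GLK2, 0.02 to 0.19 for GNC and -0.85 to -0.57 for CGA1, and 1222 to 2085 called genes in place of 2080. The count fell most when Col-0 replicate 1 was left out (1222 genes), followed by mutant replicate 1 (1294 genes) and mutant replicate 2 (1313 genes). It was 1571 without mutant replicate 3, 1947 without Col-0 replicate 2 and 2085 without Col-0 replicate 3. Every one of these fits holds 1 library fewer, so the count also varied with the library left out. Replicate numbers did not clearly pair the libraries: the correlation between their deviations from the genotype means was -0.03 for replicates 1, 0.15 for replicates 2 and 0.04 for replicates 3. With the replicate block the log2 fold changes were the same by construction, with an adjusted p of 0.0180 for CGA1 and 5.12e-05 for GLK2, and 2114 genes were called. Scaling moved the median log2 fold change over all genes only between -0.01 and 0.03. CGA1 rested on the fewest reads of the 4 genes, 162 in Col-0 replicate 1, for a counting error of 7.86%. Its SD was larger, at 18.5% of the mean in the mutant and 20.9% in Col-0.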
